A study of Mus musculus with 1505 samples.

Results

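Oxidative phosphorylation genes encode the respiratory chain and ATP synthase of mitochondria, and they were followed here across the neurons of mouse primary motor cortex. Members were taken by symbol from the table of exonic read counts. They were the rows beginning mt-Nd, mt-Co, mt-Cyt, mt-Atp, Ndufa, Ndufb, Ndufc, Ndufs, Ndufv, Uqcr, Cox4i, Cox5, Cox6, Cox7, Cox8 or Atp5, and Sdha to Sdhd, without names that contain -ps. The rule gave 105 of the 42381 genes in the table, 94 of them encoded in the nucleus and 11 in the mitochondrial genome. Rows named mt-Nd4, mt-Co3, Ndufa13 and Cox4i1, the partner of Cox4i2, were not among them. The sums of the mitochondrial set and of complexes I and IV therefore leave these genes out. Each sample was 1 neuron, recorded with a patch pipette in an acute slice of adult mouse cortex, after which its cytosol and, in most but not all cells, its nucleus was drawn out for sequencing (Patch-seq with Smart-seq2). The cells came from wild-type C57Bl/6 mice and from Cre driver lines crossed to the Ai9 reporter, so the driver set which interneurons were patched, and the labels do not name the line or the animal of a cell. Cells were grouped by the transcriptomic type (t-type) in the labels and by family: the inhibitory families Pvalb (286 cells), Sst (272), Vip (152), Lamp5 (92) and Sncg (13), and the excitatory families IT (intratelencephalic, 253), ET (extratelencephalic, labelled PT, 48), CT (corticothalamic, 83), L6b (24) and NP (near-projecting, 5). These 1228 cells were recorded at room temperature. A further 177 cells with a t-type were recorded at physiological temperature with kynurenic acid and picrotoxin, which block fast glutamatergic and GABAergic transmission, in other mice (Sst-Cre/Ai9 and Pvalb-Cre/Ai9), and are described apart.

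Electrons from NADH enter the chain at complex I and those from succinate at complex II, pass through complex III and cytochrome c to complex IV, and reduce oxygen to water. Complexes I, III and IV pump protons, and complex V (ATP synthase) uses the gradient to make ATP. Complex II is encoded wholly in the nucleus, whereas the other complexes also hold subunits that are made from mitochondrial DNA. Fast-spiking Pvalb interneurons are known for their high density of mitochondria. Some subunits of complex IV exist as pairs of isoforms, among them Cox6a1, which most tissues use, and Cox6a2, which is best known from heart and skeletal muscle.

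Promoters of nuclear members were taken from RefSeq (GRCm38.p6), as windows from 250 bases before to 50 bases after the start of a gene. Of the 94 nuclear members 75 were matched, 1 of them through a synonym, with 80 windows. They were searched on both strands for short words of factors known at such genes. The NRF1 word, GCGCA and GCGC parted by any 1 base, was in 25% of the members' windows and in 4.60% of all 32851 windows. The ETS word CCGGAAG was in 23.8% against 8.86%, the YY1 word AAGATGG in 15% against 6.34%, and the word AAGGTCA of oestrogen-related receptors in 10% against 4.72%. TATAAA was in 11.3% of the members' windows and 13.6% of all windows, and the median GC content was 58% against 52.7%. A match is a description of the letters and not a bound site. The 3 windows below were printed as examples. Cox6a1 is the partner of the isoform that differed most between families, and Ndufaf8 had the highest ratio between ET and IT cells. Uqcrc1 had 2 NRF1 words, as Cox6a1 did, while Ndufb4 and Sdha had 3 each. Capitals mark NRF1, ETS and YY1 words, written 5′ to 3′ on the strand of the gene.
Cox6a1 (chr5:115348909-115349208, minus strand): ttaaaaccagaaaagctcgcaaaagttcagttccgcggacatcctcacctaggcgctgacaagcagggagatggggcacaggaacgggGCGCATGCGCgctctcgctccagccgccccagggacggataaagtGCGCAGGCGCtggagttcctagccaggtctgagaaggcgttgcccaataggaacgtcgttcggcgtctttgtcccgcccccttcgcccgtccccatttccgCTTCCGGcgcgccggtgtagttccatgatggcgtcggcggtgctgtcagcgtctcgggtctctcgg
Uqcrc1 (chr9:108936398-108936697, plus strand): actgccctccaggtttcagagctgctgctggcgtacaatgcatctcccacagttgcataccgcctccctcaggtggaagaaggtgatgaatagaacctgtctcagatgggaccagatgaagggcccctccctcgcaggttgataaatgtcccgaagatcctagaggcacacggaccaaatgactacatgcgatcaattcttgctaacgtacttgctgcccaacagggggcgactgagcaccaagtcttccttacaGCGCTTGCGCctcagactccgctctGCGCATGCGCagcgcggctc
Ndufaf8 (chr11:120098684-120098983, plus strand): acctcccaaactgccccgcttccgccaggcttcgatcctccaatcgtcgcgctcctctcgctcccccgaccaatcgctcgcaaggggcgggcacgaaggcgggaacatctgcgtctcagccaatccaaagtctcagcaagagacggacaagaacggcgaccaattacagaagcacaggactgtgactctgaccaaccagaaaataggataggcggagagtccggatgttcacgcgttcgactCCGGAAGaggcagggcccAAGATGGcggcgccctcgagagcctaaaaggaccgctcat
Cox6a1 held 2 NRF1 words and 1 ETS word, Uqcrc1 2 NRF1 words and neither of the others, and Ndufaf8 1 ETS and 1 YY1 word.

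The cells held 2588 to 18172944 exonic reads (median 1267852). Levels are CPM (a count scaled to a total of 1000000 exonic reads without spike-in rows), summed over the cells of a family, so that deeply sequenced cells weigh more, and they are set beside the median over cells. No animal is named in the labels. Every family was therefore 1 sample, no test was run and no p-value or SE is given. The spread is shown by the quartiles over cells, and by the number of recording dates on which cells of both groups were recorded and the sign of the difference held. Where a group joined several families, a shared date need not hold all of them. Pvalb cells shared 37 dates with Sst, 25 with Lamp5 and 9 with Vip cells. The counts of dates therefore do not weigh the families equally, as the ratios do. Pvalb was 373 CPM in Pvalb cells and at most 16.6 CPM elsewhere, Sst 2189, Vip 10042 and Lamp5 967 CPM in their own families. Lamp5 was also 544 CPM in ET and 284 CPM in IT cells, and Vip 1997 CPM in Sncg cells. Gad1, Gad2 and Slc32a1 together were 2225 to 6802 CPM in the 4 large inhibitory families against at most 21.9 CPM in IT, ET and CT cells. Microglial transcripts were in every family, with 8 markers summing to 308 (CT) to 964 CPM (Vip) in the 7 large families. Markers of oligodendrocytes (7 genes) summed to 1618 CPM in ET and 1469 in CT cells against 738 in IT and 385 in Lamp5 cells, and those of astrocytes (8 genes) to 281 CPM in ET, 249 in IT and 69.3 CPM in CT cells. Their part in the differences between families was not tested. The recording dates were split by calendar year into an earlier (491 cells) and a later period (737 cells). Of the ET cells 43 of 48 were recorded in the earlier period, whereas 82 of 83 CT, 146 of 152 Vip and 84 of 92 Lamp5 cells were recorded in the later, so that ET cells set against CT, Vip or Lamp5 cells differ in period as well, and the family and the period cannot be told apart there. Other pairs of families shared dates or periods, and those values are given beside the results.

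The nuclear members made up 1.24% of all exonic reads and the mitochondrial members 0.974%. Pvalb cells had the highest summed nuclear level of the 7 large families, 15424 CPM (95% Poisson interval 15413 to 15436), followed by CT (13305), ET (12031), Vip (11971), Sst (11497), Lamp5 (11189) and IT cells (10969.5). The intervals cover counting only, since reads of 1 cell are not independent and were copied by PCR. The spread over cells was far wider. The quartiles were 7938 and 19787 CPM in Pvalb cells (range 1159 to 46014) and 4937 and 12109.8 CPM in IT cells (range 791 to 28484). By the median over cells the order was another, with CT first (12691 CPM), then Pvalb (10150.2), Vip (9009), ET (8422), Sst (8365), Lamp5 (8342) and IT last (6973). No neighbours in this order differed beyond their spread, since each median lay between the quartiles of the next family. In the small families the summed level was 8669.7 CPM in L6b, 7836 in Sncg and 9382 in NP cells.

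**Figure D1:**
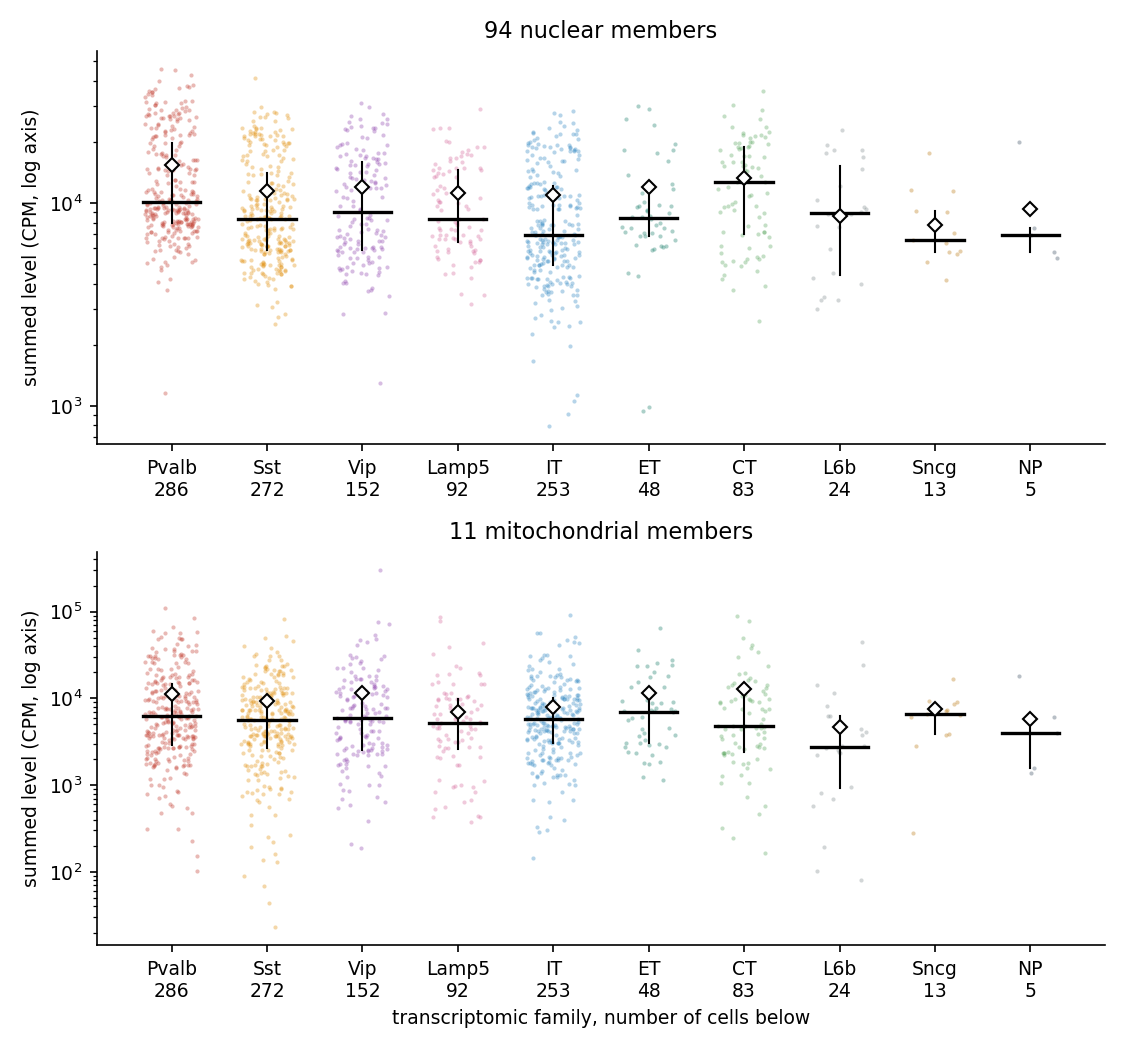
Summed level of the 94 nuclear (top) and 11 mitochondrial members (bottom) in each cell recorded at room temperature (points, CPM, log axis), by family with the number of cells below; horizontal bars are medians over cells, vertical lines the quartiles, and white diamonds the level of the summed reads. The cells of each family spread widely and the families overlap in both sets, with mitochondrial medians between 4809 (CT) and 7051 CPM (ET) in the 7 large families.

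The mitochondrial members followed another order. Their summed level was 12722 CPM in CT, 11446 in Vip, 11411 in ET, 11173 in Pvalb, 9215 in Sst, 8017 in IT and 6922 in Lamp5 cells. The medians over cells were closer together, from 4809 (CT) to 7051 CPM (ET), and CT cells moved from the highest sum to the lowest median. A few cells carried much of these sums. In CT cells, 5 cells held 59.4% of the mitochondrial reads and 17.2% of the depth, and in Vip cells 5 cells held 43.5% with 7.17% of the depth, among them 1 cell at 305120 CPM. Family accounted for 6.55% of the variance of the log2 nuclear level over cells and for 1.17% of that of the mitochondrial level, t-type for 7.70% and 5.31%, and recording date for 18.1% and 6.49% (adjusted for the number of groups, 10, 78 and 238).

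Of the 11 mitochondrial members 8 reached 10 CPM in every large family. mt-Cytb, the mitochondrial subunit of complex III, was 1650 (Lamp5) to 3418 CPM (CT), and mt-Co1, the catalytic subunit of complex IV, 1731 (IT) to 3358 CPM (CT). Among the complex I subunits, mt-Nd1 was 1426 to 2666 CPM, mt-Nd4l 979 to 1949 CPM, mt-Nd5 806 to 1433 CPM and mt-Nd2 162 to 413 CPM, whereas mt-Nd6 was 76.2 to 197 CPM and mt-Nd3 22.996 to 82.43 CPM. Per kilobase of exon, mt-Nd4l had the highest mean level over the 7 families, 5111 CPM per kb, followed by mt-Nd1 (2253) and mt-Cytb (2175). The other 3, mt-Atp6, mt-Atp8 and mt-Co2, were near 0, with at most 0.315 CPM for both ATP synthase subunits together. Of the 75-base stretches of mt-Atp6, 99.5% also occur in the transcript of Gm10925, and of those of mt-Co2, 99.5% occur in Gm28661. Both are unprocessed pseudogenes on chromosome 1 (chr1:24613974-24614651 and chr1:24614885-24615565, GENCODE M21, mm10). Over all cells these 2 rows held 2643 and 575 CPM, so the reads of these genes and of their copies cannot be told apart. mt-Nd3 shared 97.8% of its stretches with Gm28438 (36.2 CPM) and mt-Co1 39.8% with other transcripts, mainly Gm29216 (1316 CPM). mt-Nd4l shared 98.7% with Gm10222, which had no row among the counts, and mt-Atp8, mt-Cytb, mt-Nd1 and mt-Nd6 shared none. The order per kilobase therefore covers the reads in the members' own rows only. With the 4 copies counted, the summed mitochondrial level was 10337 (Lamp5) to 19520 CPM (CT).

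Of the 94 nuclear members 84 reached 10 CPM in at least 1 of the 7 large families and 82 in each of them. The 10 below 10 CPM were the isoforms Cox4i2, Cox6b2, Cox7a1, Cox7b2, Cox8b, Cox8c and Ndufa4l2 and the rows Cox6c2, Ndufa11b and Ndufs6b. GENCODE lists Cox6c2, Ndufa11b and Ndufs6b as processed pseudogenes, and the rule counts them among the members of their complexes. Complex V had the largest summed nuclear level, 4023 (IT) to 6192 CPM (Pvalb) over 17 members, followed by complex I with 37 members (3079 to 4180 CPM), complex IV with 20 (1438 to 2221 CPM), complex III with 8 (1124 to 1611 CPM) and complex II with 4 (668 to 831 CPM). The 8 assembly factors of complex I (Ndufaf) summed to 273 to 487 CPM. The member with the highest mean level per kilobase was Cox8a in complex IV (465 CPM per kb), Atp5b, the catalytic beta subunit, in complex V (330), Ndufc2 in complex I (154), the Rieske protein gene Uqcrfs1 in complex III (139.7) and the iron-sulphur subunit gene Sdhb in complex II (95.4). Exact 75-base stretches were shared with another transcript in over 10% of the sequence for 17 nuclear members, and in over 50% for Ndufaf2 alone (63.2%, with B230220B15Rik). The values of these members are therefore less certain.

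The first comparison set Pvalb cells against the mean of the other inhibitory families Sst, Vip and Lamp5. The summed nuclear level was 15424 against 11552 CPM, 1.34-fold, and it was higher in Pvalb cells on 37 of 60 shared dates. In all 83 nuclear members reached 10 CPM, and 78 of them were above 0 on the log2(CPM + 1) scale. Their median log2 ratio was 0.41, against 0.02 over all 10986 genes tested. At least 1.5-fold higher were 17 nuclear members (20.5%), whereas 16.1% of all genes were, and at least 1.5-fold lower were 0, whereas 14.9% of all genes were. The share of higher members thus lies near that of all genes in this setting. Under other settings the count at 1.5-fold ran from 12 of 83 (median-of-ratios scaling) to 33 of 84 (earlier period). The share of all genes is not given for those settings. All complexes lay on the same side, with log2 ratios of their sums of 0.53 for complex IV, 0.44 for V, 0.40 for III, 0.39 for I and 0.19 for II. Malat1 and Meg3, RNAs of the nucleus, had a median over cells of 15002 CPM in Pvalb cells against 11185 in the mean of the other families, and their part in this difference was not tested.

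Cox6a2 stood far from the other members at a log2 ratio of 2.24 (63.5 against 12.7 CPM), higher on 50 and lower on 6 of 60 shared dates. The next were the assembly factor Ndufaf2 (0.90, 37.01 against 19.32 CPM), the complex I subunit Ndufa3 (0.84, 71.6 against 39.5 CPM), Atp5g1, which encodes the ring subunit c of ATP synthase (0.82, 207.5 against 117.1 CPM), and the complex IV subunit Cox7b (0.76, 227 against 134 CPM). These were higher on 35, 40, 42 and 38 of 60 dates, respectively. In complex IV, 6 of 12 members passed 1.5-fold, namely Cox5a, Cox6a1, Cox6a2, Cox6b1, Cox6c and Cox7b, beside 16.1% of all genes. At the other end were the assembly factor Ndufaf3 (-0.32), Sdhc, a membrane anchor of complex II (-0.09), Cox7a2l (-0.06), Atp5g2 (-0.02) and Ndufaf7 (-0.01). Atp5g1, Atp5g2 and Atp5g3 encode the same mature subunit c, and their log2 ratios were 0.82, -0.02 and 0.71. The mitochondrial members were 11173 against 9194 CPM (1.22-fold), higher on 32 and lower on 28 of 60 dates. All 8 measured ones were above 0 (median 0.29), and mt-Nd3 alone passed 1.5-fold (0.66).

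**Figure D2:**
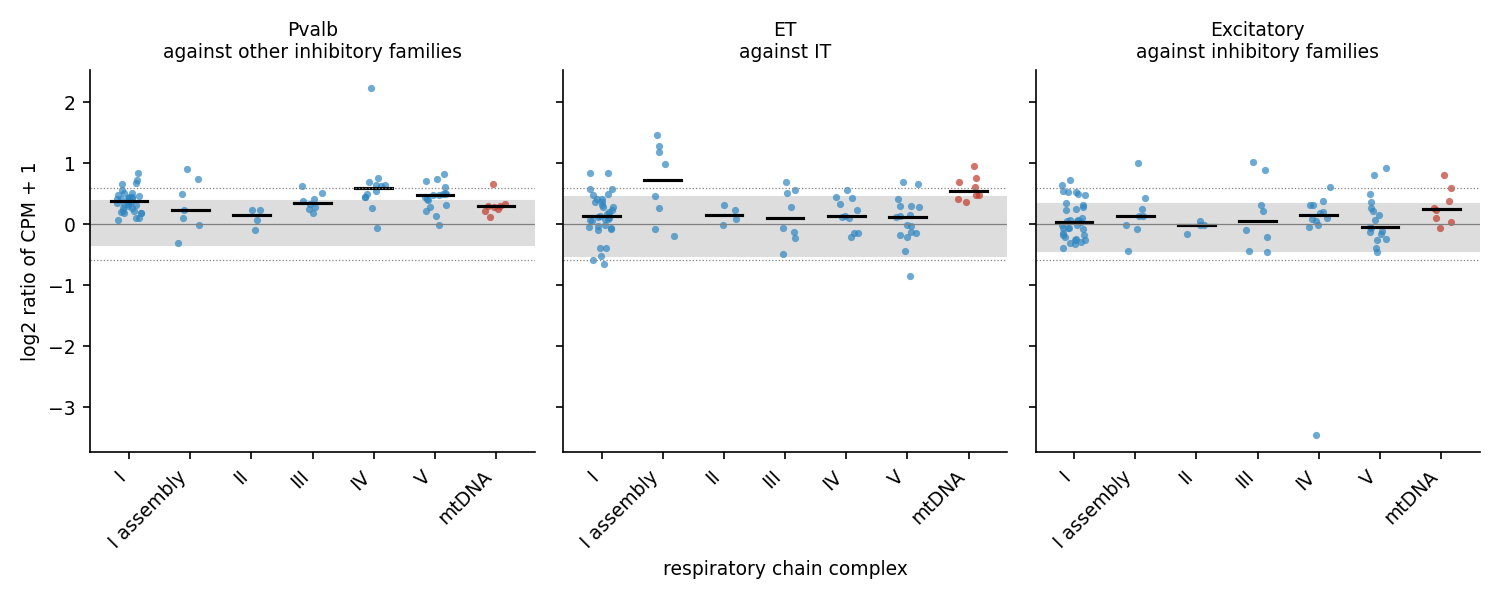
Log2 ratio of CPM + 1 of each member with at least 10 CPM, by complex (blue, nuclear) and for the mitochondrial genome (red, mtDNA), in the 3 comparisons; black bars are medians, the grey band holds the middle quartiles of all genes tested and dotted lines mark 1.5-fold. In Pvalb cells the medians of complexes I to V lie between 0.15 and 0.59, and Cox6a2 stands apart at 2.24 in the first and -3.46 in the third comparison.

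Cox6a2 (ENSMUSG00000030785.8, chr7:128205435-128206387, mm10, minus strand, 3 exons) was the member with the largest log2 ratio against the other inhibitory families. Per cell it ranged from 0 to 479 CPM in Pvalb cells (median 30.1, quartiles 0.37 and 76.4). In Lamp5 cells the median was 0 and the highest cell 207 CPM, in Vip cells 0 and 391.6 CPM, in Sst cells 0 and 94.4 CPM, in IT cells 0 and 129 CPM, and in ET cells 0 and 0.209 CPM. The families overlapped: 26 of 92 Lamp5, 19 of 152 Vip, 8 of 272 Sst, 5 of 253 IT and 0 of 48 ET or 83 CT cells lay above the Pvalb median. The summed level was 63.5 CPM in Pvalb (Poisson interval 62.8 to 64.3), 21.4 in Lamp5, 14.7 in Vip, 3.95 in IT, 1.91 in Sst, 0.240 in CT and 0.00820 CPM (1 read) in ET cells. In IT cells 1 cell held 62.9% of the reads, and without it the level was 1.502 CPM.

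After each cell had been thinned to 200000 reads, Cox6a2 was detected in 71.8% of Pvalb cells (exact binomial interval 66.1 to 77.1%), 42.2% of Lamp5, 21.5% of Vip, 8.86% of Sst, 5.42% of IT, 1.22% of CT and 0% of ET cells (upper limit 8.04%). Before thinning, these shares were 74.8%, 43.5%, 25.7%, 9.93%, 7.11%, 3.61% and 2.08%. CT and ET cells had the lowest shares. On dates that held both families, Cox6a2 was higher in Pvalb than in Sst cells on 34 of 37, than in IT cells on 46 of 55, than in Lamp5 cells on 18 of 25 and than in Vip cells on 6 of 9 dates. In Pvalb cells it was 69.9 CPM before and 58.3 CPM after the change of period.

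Among t-types with at least 5 cells, Cox6a2 was highest in Pvalb Reln (88.5 CPM, 72 cells) and Pvalb Calb1_2 (83.2 CPM, 30 cells), and lowest within the family in Pvalb Kank4 (22.1 CPM, 22 cells). The Vip signal came mostly from 1 t-type. Vip Mybpc1_2 had 64.7 CPM (33 cells, 57.6% with a read) and held 86.8% of the Vip reads, and the other 119 Vip cells had 2.42 CPM. Likewise Lamp5 Pdlim5_2 had 43.7 CPM (24 cells) and held 59.7% of the Lamp5 reads, against 12.2 CPM in the other 68 Lamp5 cells. In Pvalb Egfem1 a single cell held 81.97% of the reads, so its 61.6 CPM rests on that cell.

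The partner isoform Cox6a1 was present in every large family. It was 143 CPM in Pvalb, 95.3 in Sst, 88.97 in Vip, 92.2 in Lamp5, 146 in IT, 216 in ET and 119 CPM in CT cells, and 88.9 to 100% of the thinned cells had a read. Its medians over cells ran from 56.2 (Sst) to 124 CPM (ET), and the quartiles of all large families overlapped. The other tissue isoforms were low. Cox4i2, Cox6b2, Cox7b2, Cox8b, Cox8c and Ndufa4l2 were under 1 CPM in each of the 7 families. Cox7a1, the muscle partner of Cox7a2, was 4.66 CPM in ET and 0.483 (Vip) to 1.47 CPM (Pvalb) in the other large families, with a read in 20.5% of thinned ET cells (interval 9.80 to 35.3%) and 7.33% of Pvalb cells. Cox7a2 was 143 CPM in ET and 208 CPM in Pvalb cells.

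**Figure D3:**
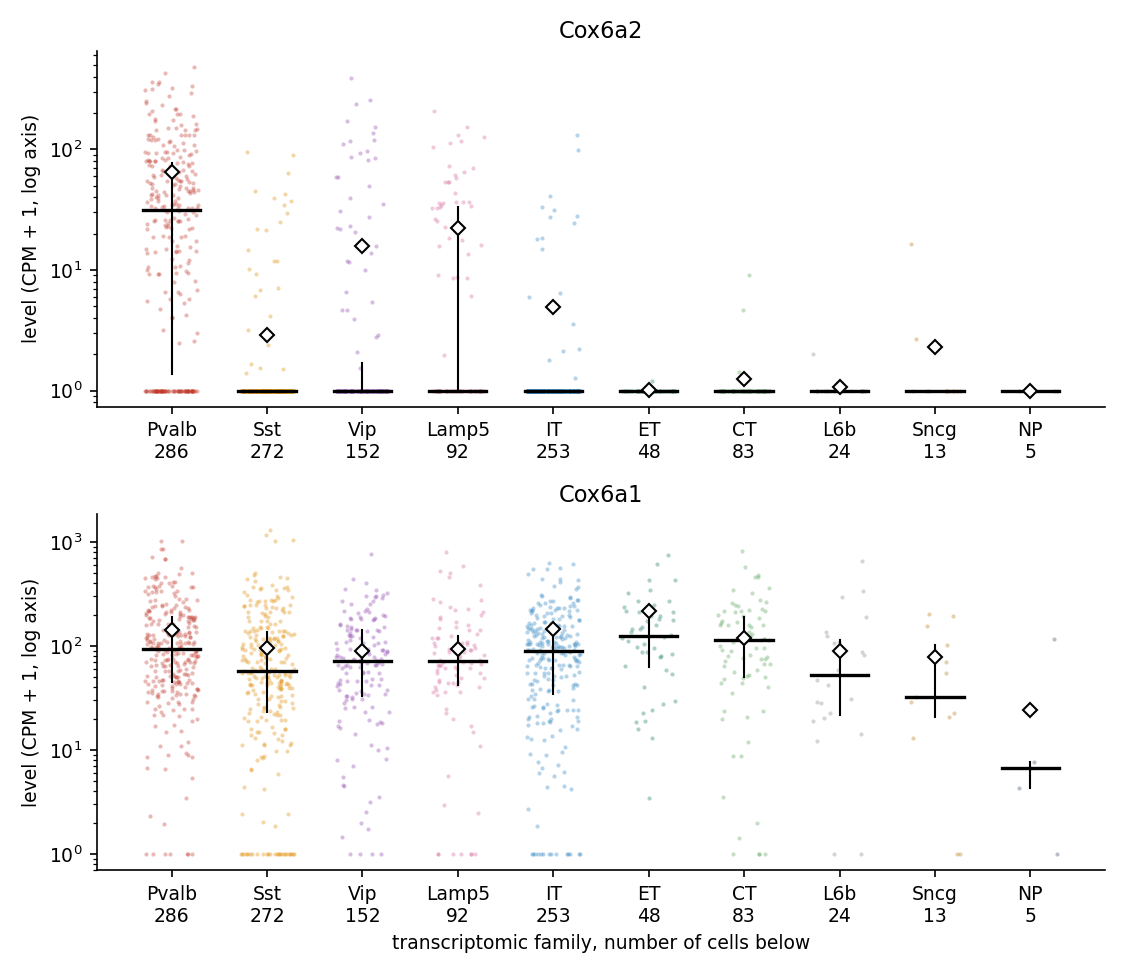
Level of Cox6a2 (top) and Cox6a1 (bottom) in each cell (points, CPM + 1, log axis) by family with the number of cells below; bars, lines and diamonds are the median, quartiles and summed level, and cells without a read lie at 1. Cox6a2 has a median above 0 CPM in Pvalb cells alone among the large families, whereas Cox6a1 has medians between 56.2 and 124 CPM in all 7.

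The second comparison set ET against IT cells, which project to subcortical and to cortical and striatal targets, respectively. The summed nuclear level was 12031 against 10969.5 CPM, 1.10-fold, and was higher in ET cells on 9 and lower on 13 of 22 shared dates. Of 83 nuclear members 54 were above 0, with a median log2 ratio of 0.14 against -0.05 over all 11394 genes tested. At least 1.5-fold higher were 9 members (10.8%) and at least 1.5-fold lower 3 (3.61%), whereas 19.7% and 23% of all genes were. A smaller share of members than of all genes thus passed 1.5-fold in either direction. Members and genes were not matched by level, and the part of level in this was not tested. The 48 ET cells were uneven, since 5 of them held 53.8% of the nuclear members' reads with 31.7% of the depth. Malat1 and Meg3 had a median of 29325 CPM in ET and 17894 CPM in IT cells, and their part was not tested.

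The sum of the complex I assembly factors was 487 CPM in ET and 273 CPM in IT cells (log2 ratio 0.83), and 4 of 8 passed 1.5-fold, beside 19.7% of all genes. The 35 measured subunits of complex I had 2 higher and 2 lower, with a ratio of the complex I sums of 0.13. Ndufaf7, a methyltransferase that acts on a core subunit, was 151 against 61.3 CPM (1.29), higher on 18 and lower on 4 of 22 dates. Ndufaf4 was 152 against 66.4 CPM (1.19), higher on 16 and lower on 6 dates, with medians over cells of 96.6 and 38.6 CPM. Ndufaf6 was 26.1 against 12.8 CPM (0.98), higher on 11 and lower on 8 dates. Ndufaf8 had the highest ratio (1.47, 31.6 against 10.8 CPM), yet it was higher on 8 and lower on 12 dates, and 1 cell held 31.2% of its ET reads. In the later period, with 5 ET cells, it had no read in ET cells. The fifth was the accessory subunit Ndufb7 (0.84, 92.7 against 51.2 CPM), higher on 11 and lower on 10 dates.

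The lowest members were Atp5g2 (-0.85, 15.8 against 29.3 CPM), Ndufb3 (-0.65), the core complex I subunit Ndufs3 (-0.59), Ndufa10 (-0.52) and Uqcrc2, a core protein of complex III (-0.50). They were lower on 12 to 14 of 22 dates. Ndufb3 and Ndufs3 were at -0.93 and -1.14 in the earlier period, and at 0.074 and 0.72 in the later period. The mitochondrial members were 11411 against 8017 CPM (1.42-fold). All 8 measured ones were above 0, and mt-Nd3 (0.95), mt-Nd6 (0.76), mt-Nd4l (0.68) and mt-Nd1 (0.61) passed 1.5-fold. The shared dates were split evenly, with ET cells higher on 11 and lower on 11. In the earlier period their log2 ratio was -0.05, against 1.85 in the later one with its 5 ET cells, so the sign rests on those cells.

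The third comparison set the mean of the excitatory families IT, ET and CT against the mean of the inhibitory families Pvalb, Sst, Vip and Lamp5. The summed nuclear level was 12102 against 12520 CPM, a log2 ratio of -0.05, and excitatory cells were lower on 72 of 97 shared dates. The dates held whichever families were recorded then. Pvalb cells, for example, shared 55 dates with IT, 17 with CT and 8 with ET cells. Of 84 members 45 were above 0 (median 0.05, against -0.08 over all 11271 genes tested). At least 1.5-fold higher were 8 members (9.52%) and lower 1 (1.19%), whereas 16.6% and 18.4% of all genes were. The only member at least 1.5-fold lower was Cox6a2 (-3.46, 1.40 against 25.4 CPM), lower on 68 and higher on 5 of 97 dates. The highest were Uqcr11 (1.02, 99.98 against 48.95 CPM) and Uqcr10 (0.88), small subunits of complex III, the assembly factor Ndufaf8 (0.996), and Atp5k (0.91) and Atp5e (0.80), small subunits of ATP synthase. Each of these 5 was lower in excitatory cells on more dates than it was higher (42 higher and 55 lower for Uqcr11). The next lowest were Atp5a1, the alpha subunit of ATP synthase (-0.46, 661 against 909 CPM, lower on 70 of 97 dates), Uqcrc2 (-0.45), Uqcrfs1 (-0.44) and Ndufaf5 (-0.44). The mitochondrial members were 10717 against 9689 CPM, higher on 53 and lower on 44 dates. Malat1 and Meg3 had a mean of family medians of 18123 CPM in excitatory and 12139 CPM in inhibitory families, and their part was not tested.

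Across the 53 t-types with at least 5 cells, the summed nuclear level ran from 6313 CPM in Lamp5 Pax6 (5 cells) to 19443 CPM in Sst Myh8_3 (9 cells), 3.08-fold. Of the 9 Pvalb t-types all lay between 12495 (Pvalb Kank4) and 17910 CPM (Pvalb Reln) by the sum, whereas the 15 Sst t-types ran from 6442 (Sst C1ql3_1) to 19443 CPM. By the median over cells the Pvalb t-types spread more, from 8118 (Pvalb Egfem1, 34th of 53) to 17486 CPM (Pvalb Calb1_1). That is 2.15-fold, against 1.43-fold by the sum, and the Sst t-types spread 3.26-fold by the median. Sst Myh8_3 was first by the sum and by the median over cells (19695 CPM), and its median of Malat1 and Meg3 was 2335 CPM, against 13881 CPM in Pvalb Reln. Pvalb Reln was second by the sum and 14th by the median (11150 CPM). The 8 IT t-types ran from 6413 (L6 IT_1) to 12582 CPM (L5 IT_1), L5 PT_1 and L5 PT_4 were at 12826 and 13540 CPM, and L6 CT Cpa6 and L6 CT Pou3f2 at 12263 and 15821 CPM. Over t-types, sum and median had a Spearman rho of 0.71.

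The mitochondrial level spread more, 16.3-fold, from 1931 CPM in L6b Ror1 (5 cells) to 31403 CPM in Sst Htr1a (6 cells). Sst Htr1a, Vip Gpc3 (25960 CPM, 26 cells) and Lamp5 Pax6 (19190 CPM) were 1st, 2nd and 5th of 53 by the sum but had medians over cells of 8826, 8474 and 1721 CPM. Their sums rested on single cells, the highest of which were 49007, 305120 and 86388 CPM. The same t-types were 47th, 45th and 53rd for the nuclear members. Nuclear and mitochondrial levels had a Pearson r of 0.20 on the log2 scale and a Spearman rho of 0.17 over the 53 t-types, which share their libraries and totals. Of the 84 nuclear members with at least 10 CPM, 68 had an r above 0.5 with the sum of the other nuclear members (median 0.63). Ndufa4 and Atp5j were highest (0.90), and the assembly factors Ndufaf6 (-0.13) and Ndufaf4 (0.10) lowest.

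**Figure D4:**
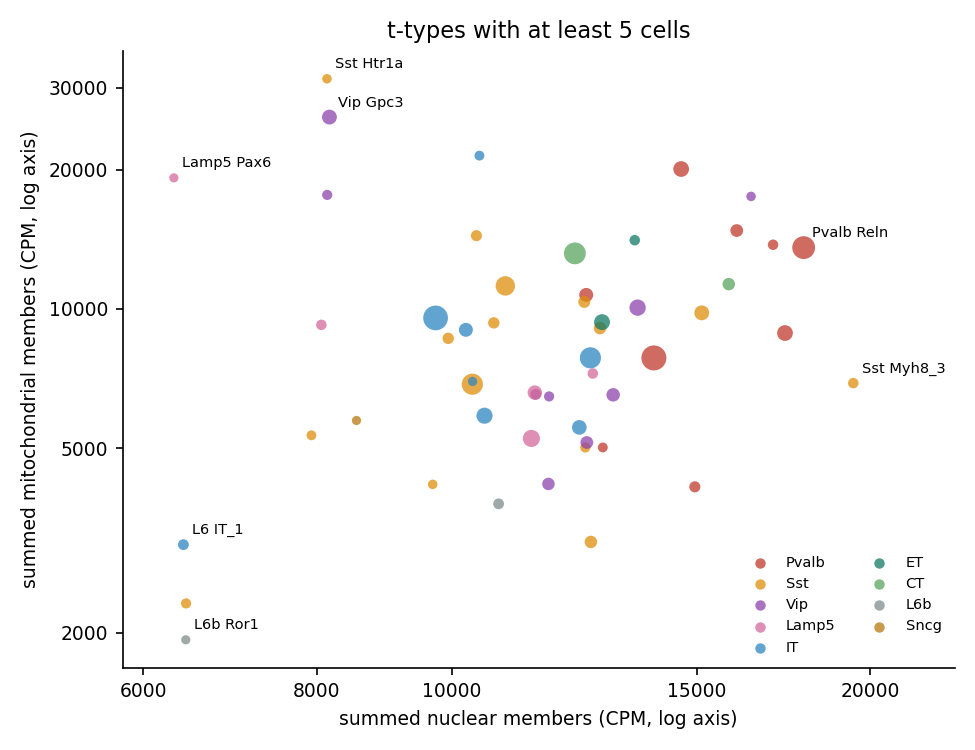
Summed nuclear against summed mitochondrial level of the 53 t-types with at least 5 cells (CPM, log axes), coloured by family, with areas that grow with the number of cells. Pvalb t-types lie to the right by their sums (12495 to 17910 CPM) but are spread along the mitochondrial axis. Their nuclear medians over cells run from 8118 to 17486 CPM. Sst Htr1a, Vip Gpc3 and Lamp5 Pax6 lie high on the mitochondrial axis through single cells (their mitochondrial medians over cells are 8826, 8474 and 1721 CPM).

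Within families, the nuclear level of a cell moved with the make-up of its RNA. Over the 1228 cells the Spearman rho of the nuclear members was -0.65 with Malat1 and Meg3, 0.64 with the 75 cytosolic ribosomal protein genes, 0.36 with the mitochondrial members and 0.09 with depth. The rho with Malat1 and Meg3 was -0.84 in CT, -0.81 in Vip, -0.79 in Lamp5, -0.72 in Sst, -0.65 in Pvalb, -0.51 in IT and -0.29 in ET cells. The levels are shares of the same total, and the part of this in the rho was not tested. The mitochondrial members had a rho of 0.85 with the mitochondrial ribosomal RNAs, of -0.26 with Malat1 and Meg3 and of -0.08 with depth. Families differed in this respect too, since the median of Malat1 and Meg3 was 7149 CPM in CT, 8308 in Lamp5 and 29325 CPM in ET cells.

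**Figure D5:**
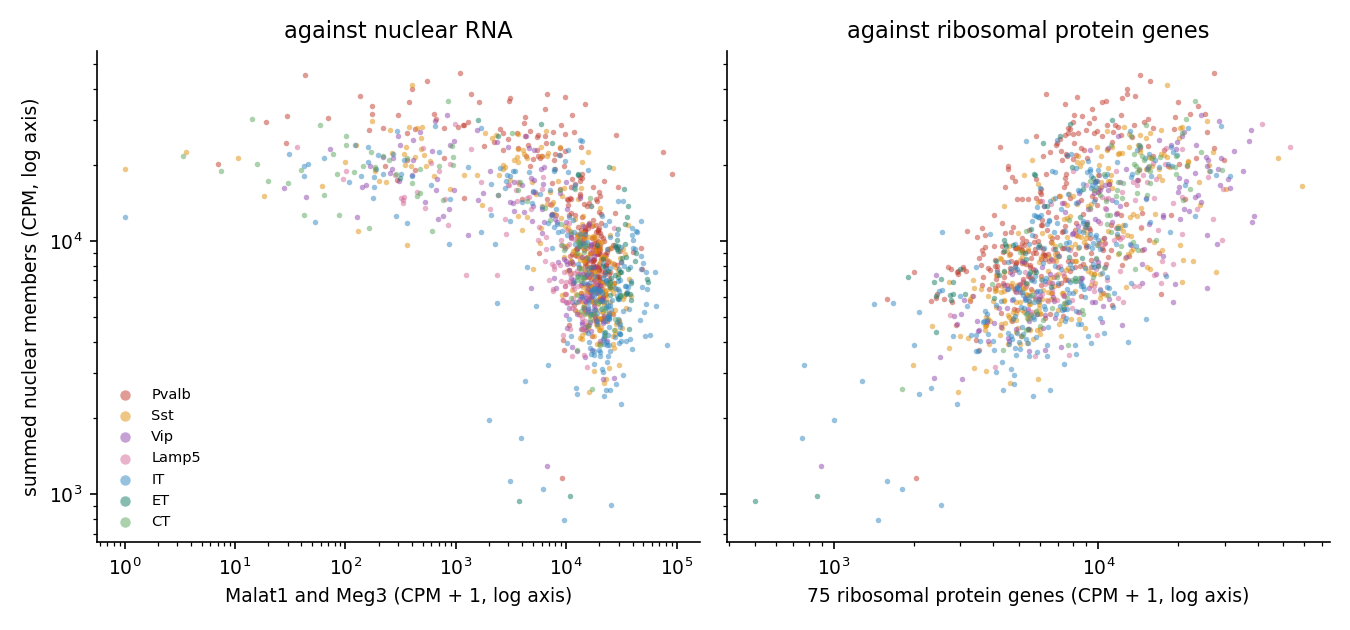
Summed nuclear members (CPM, log axis) in each cell of the 7 large families against Malat1 and Meg3 (left) and against 75 ribosomal protein genes (right, both CPM + 1, log axes), coloured by family. Cells with little Malat1 and Meg3 have high levels of the nuclear members (rho -0.65 over all 1228 cells), and cells with more of the ribosomal protein genes have higher levels (rho 0.64).

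Other genes of energy metabolism were followed in lists, to be read against the 16.1% of all genes that were higher and the 14.9% that were lower in Pvalb cells. In these cells, 17 of 17 genes of the TCA cycle and pyruvate entry were above 0 (median 0.50) and 6 passed 1.5-fold, among them Mpc2, a pyruvate carrier (0.85), Ogdh (0.83), Pdhb (0.79) and Idh3a (0.71). Of 11 measured genes of mitochondrial biogenesis 6 passed, with Esrrg (80.4 against 12.4 CPM, 2.60) and the coactivator Ppargc1a (195 against 48.6 CPM, 1.98) first. The lactate dehydrogenase subunits went apart, Ldhb at 1220 against 505 CPM (1.27) and Ldha at 83.1 against 231 CPM (-1.46), while 3 of 16 glycolysis genes were higher and 1 lower. Of 8 genes of ATP export and buffering 3 passed, namely the phosphate carrier Slc25a3 (0.94), the creatine kinase Ckb (0.86) and the ADP/ATP carrier Slc25a5 (0.71). Of 15 assembly and carrier genes 2 passed, Atpaf1 (1.07) and Cox15 (0.85), and of 6 genes of uncoupling and oxidant defence 0 passed in either direction. The ribosomal protein genes went the other way, with 1 of 75 above 0 (median -0.37).

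Between ET and IT cells, where 19.7% of all genes were higher and 23% lower, 2 of 11 biogenesis genes were higher and 1 lower. Ppargc1a was 156 against 37.3 CPM (2.04), Esrrg was at 0.63, and Tfam, the mitochondrial transcription factor, was 25.7 against 48.8 CPM (-0.90). The mitochondrial creatine kinase Ckmt1 was 385 against 183 CPM (1.07), while 0 of 17 TCA cycle genes passed in either direction (median -0.05). Of 16 glycolysis genes 4 were lower, namely Eno1 (-1.06), Ldha (-0.98), Pfkl (-0.81) and Gapdh (-0.73), and 1 was higher. Of the assembly and carrier genes 2 of 15 were higher (Cox19 at 1.14 and Cox10 at 1.10) and 3 lower, and of 6 genes of uncoupling and oxidant defence 1 was higher (Prdx3, 0.86) and 1 lower (Ucp2, -1.06). Of 75 ribosomal protein genes 23 were lower. Between excitatory and inhibitory families, where 16.6% of all genes were higher and 18.4% lower, Ldha was 552 against 194 CPM (1.503), Pfkl at 1.13 and Hk1 at 1.02, with 5 of 16 glycolysis genes higher. Of 17 TCA cycle genes 2 were lower, Pdhb (-0.93) and Dld (-0.69), and of 11 biogenesis genes 0 passed in either direction (median -0.31). Of 8 ATP export genes 1 was higher (Ckmt1, 0.61) and 1 lower (Vdac2, -0.78), of 15 assembly and carrier genes 1 was higher (Sco1, 1.06), and of 6 genes of uncoupling and oxidant defence 1 was lower (Ucp2, -0.59). Of 75 ribosomal protein genes 3 were higher and 1 lower.

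At physiological temperature the table held 93 nuclear and 10 mitochondrial members, and no spike-in rows. The summed nuclear level was 23843 CPM in Pvalb (10 cells), 18464.5 in Sst (110), 16679 in ET (12) and 15038 CPM in IT cells (43), with medians over cells of 23004, 17038, 15386 and 14078 CPM. These cells differed from those at room temperature also in the blockers, the mice and the layer. The paper targeted Sst and excitatory neurons of L5 there. The IT cells at room temperature also held L2/3, L4/5 and L6 t-types (86 of 253 were L2/3 IT_3). The ET cells at physiological temperature came from 2 dates. The tables are therefore set side by side and not compared in level, and the ratios between families cover unlike sets of cells. Pvalb against Sst had a log2 ratio of 0.37 with 74 of 83 members above 0, and in the cells at room temperature 0.42 with 81 of 83. The median log2 ratio of the members was 0.34 against 0.03 over all genes, and 0.37 against 0.04 at room temperature. ET against IT had a ratio of 0.15 with 58 of 82 members above 0, and at room temperature 0.13 with 54 of 83. Here the median of the members was 0.17 against 0.03 over all genes, and 0.14 against -0.05 at room temperature. Cox6a2 was 70.5 CPM in Pvalb (7 of 10 cells with a read) against 2.37 CPM in Sst cells (16 of 110), a log2 ratio of 4.41, and 4.47 at room temperature. In ET cells it was 3.01 CPM (2 of 12 cells, 55 reads) and in IT cells 0.968 CPM (4 of 43), a log2 ratio of 1.02, whereas it was -2.29 at room temperature, with 1 read in ET cells. Ndufaf7 was at 1.02 between ET and IT cells, Ndufaf4 at 0.63 and Ndufaf8 at 0.08, and the mitochondrial members at 0.88. Between Pvalb and Sst cells the mitochondrial members were at -0.23, the opposite side from room temperature (0.28), while the medians over cells gave 0.18.

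The intronic reads of these cells gave a second readout of the nuclear members, as reads of unspliced RNA. Nuclear members summed to 2326 CPM of the intronic reads in Pvalb, 2197 in Sst, 1768 in ET and 1408 in IT cells. The log2 ratio was 0.08 between Pvalb and Sst and 0.33 between ET and IT cells, against 0.37 and 0.15 for the exonic reads. The median intronic share of reads was 46.9% in IT, 42.5% in ET, 25.6% in Pvalb and 23.4% in Sst cells. Over the 177 cells the exonic level of the nuclear members had a Spearman rho of -0.79 with the intronic share, and Malat1 and Meg3 one of 0.91, over cells that share totals and 2 tables.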

How the data were processed

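Each sample was 1 neuron. The authors aligned the reads to mm10 with STAR and used zUMIs with a Gencode annotation to count reads in the exons and in the introns of each gene, and the deposited values are whole-number counts without normalization or molecular identifiers. The submitters' processing notes give STAR 2.5.4b and bcl2fastq 2.20. Recording dates were read from the sample titles. Used were the exonic counts at room temperature and the exonic and intronic counts at physiological temperature. At room temperature, 101 columns were not used, 9 of no sample and 92 of cells without a t-type, and in the others 8. The 85 spike-in rows (4.28% of counts) were left out of totals. Counts were summed per group and given as CPM, and ratios are log2 after adding 1 CPM. With 1 sample per group no test between groups was run, and a gene counted as tested with at least 10 CPM in 1 group and as called at 1.5-fold. The members and lists were chosen with earlier results of these data known. Named were the 5 highest and 5 lowest nuclear members of each comparison, the mitochondrial members, tissue isoforms, the highest member per kilobase of each complex and the list genes with large ratios. The intronic readout had been planned for room temperature and is given for physiological temperature. Doublets were not searched for, since single cells were aspirated. Poisson and exact binomial intervals (95%) cover counting error only. The ratios were tested on simulated counts. Coordinates and exon lengths are from GENCODE M21 on the same build. Alternatives were medians over cells, means over dates, depth limits, periods, other totals, scaling, pseudocount, filter and fold. Python 3.11.15, numpy 2.4.6, scipy 1.17.1 and pandas 2.3.3 were used.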

Additional observations from a re-analysis of the deposited data

Results flagged for a closer look

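In t-types of 5 to 10 cells, the highest or lowest cell was set against the spread of the others by Dixon's ratio, in 44 groups of values, of which chance would mark about 1 in 20. In 14 of them the highest cell stood apart, and in 0 the lowest. For the nuclear members these were L5 PT_4 (30130 CPM, next 17749, 9 cells), L6 IT_1 (15928 CPM, next 6259, 10 cells), Lamp5 Egln3_1 (18206 CPM, next 11356, 9 cells), Sst C1ql3_1 (25470 CPM, next 12187, 8 cells), Sst Htr1a (29790 CPM, next 11250, 6 cells) and Sst Pvalb Etv1 (24042 CPM, next 10339, 8 cells). The cell of Sst C1ql3_1 held 6164 exonic reads. For the mitochondrial members these were Lamp5 Egln3_2 (77767 CPM, next 11471, 9 cells), Lamp5 Pax6 (86388 CPM, next 2740, 5 cells), Pvalb Calb1_1 (51558 CPM, next 26052, 9 cells), Pvalb Gabrg1 (60380 CPM, next 7677, 7 cells), Sst Htr1a (49006 CPM, next 13342, 6 cells), Sst Pvalb Etv1 (24154 CPM, next 11575, 8 cells), Vip C1ql1 (75645 CPM, next 31958, 8 cells) and Vip Mybpc1_1 (24888 CPM, next 7776, 8 cells). In Lamp5 Pax6 the other four cells lay between 828.8 and 2739.6 CPM, so that its summed level describes 1 cell. The ratio was taken on CPM, which are skewed towards high values in most t-types, and no cause was tested.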

How the results depend on the processing

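The cells of a family were 1 sample, so a ratio of sums counts as moved when it left its narrow counting interval. A count of members counts as moved when it changed by more than 1.5-fold or fell to 0. Ratios of sums and counts that did not move are left out below. Sums near 0 changed sign under some alternatives. Equal weights for t-types and the counted nuclear copies were chosen after seeing the data. Totals of exonic and intronic reads were not run at room temperature. Families were paired only by the counts of shared recording dates in the report. The mean over recording dates took all dates of each family with equal weight, shared or not, and so paired no families. For Pvalb against the other inhibitory families, the log2 ratio of the nuclear members (0.42) was 0.24 with the median over cells, 0.42 with cells with at least 500000 counts, 0.43 with the earlier period, 0.41 with the later period, 0.42 with a total without mitochondrial members, 0.35 with median-of-ratios scaling, 0.44 with leaving out the deepest cell of each family and 0.46 with equal weight for t-types. For Pvalb against the other inhibitory families, the log2 ratio of the mitochondrial members (0.28) was 0.15 with the median over cells, 0.15 with the mean over recording dates, 0.30 with cells with at least 500000 counts, 0.21 with thinning to 200000 counts, 0.57 with the earlier period, 0.29 with the later period, 0.28 with a total without mitochondrial members, 0.21 with median-of-ratios scaling, 0.24 with leaving out the deepest cell of each family and 0.14 with equal weight for t-types. The count of nuclear members at least 1.5-fold higher (17 of 83) was 29 of 79 with the median over cells, 33 of 84 with the earlier period and 1 of 83 with a 2-fold rule. The share of all genes is given for the main setting only. The counts under alternatives, here and below, therefore cannot be set beside other genes and are no result about the members. For ET against IT, the log2 ratio of the nuclear members (0.13) was 0.27 with the median over cells, -0.050 with the mean over recording dates, 0.14 with cells with at least 500000 counts, 0.12 with thinning to 200000 counts, 0.072 with the earlier period, 0.10 with the later period, 0.14 with a total without mitochondrial members, 0.078 with leaving out the deepest cell of each family and 0.35 with equal weight for t-types. For ET against IT, the log2 ratio of the mitochondrial members (0.51) was 0.28 with the median over cells, 0.18 with the mean over recording dates, 0.53 with cells with at least 500000 counts, 0.20 with thinning to 200000 counts, -0.054 with the earlier period, 1.85 with the later period, 0.51 with a total without mitochondrial members, 0.38 with leaving out the deepest cell of each family, 0.43 with equal weight for t-types and 0.51 with the nuclear copies counted. The count of nuclear members at least 1.5-fold higher (9) was 23 with the median over cells, 4 with the mean over recording dates, 26 with equal weight for t-types and 3 with a 2-fold rule. The count of nuclear members at least 1.5-fold lower (3) was 0 with the median over cells, 1 with thinning to 200000 counts, 23 with the later period, 1 with leaving out the deepest cell of each family, 1 with equal weight for t-types, 5 with no filter on low values and 0 with a 2-fold rule. For excitatory against inhibitory families, the log2 ratio of the nuclear members (-0.05) was 0.062 with the median over cells, -0.13 with the mean over recording dates, -0.040 with cells with at least 500000 counts, -0.11 with thinning to 200000 counts, -0.30 with the earlier period, -0.12 with the later period, -0.048 with a total without mitochondrial members, -0.073 with median-of-ratios scaling, -0.11 with leaving out the deepest cell of each family and 0.050 with equal weight for t-types. For excitatory against inhibitory families, the log2 ratio of the mitochondrial members (0.15) was 0.043 with the median over cells, 0.039 with the mean over recording dates, 0.17 with cells with at least 500000 counts, -0.063 with thinning to 200000 counts, 0.021 with the earlier period, 0.58 with the later period, 0.15 with a total without mitochondrial members, 0.13 with median-of-ratios scaling, -0.12 with leaving out the deepest cell of each family, 0.093 with equal weight for t-types and 0.19 with the nuclear copies counted. The count of nuclear members at least 1.5-fold higher (8) was 0 with the mean over recording dates, 0 with thinning to 200000 counts, 3 with the later period, 5 with leaving out the deepest cell of each family and 1 with a 2-fold rule. The count of nuclear members at least 1.5-fold lower (1) was 19 with the earlier period. Families weighed equally in these means, and the earlier period held 1 CT, 6 Vip and 8 Lamp5 cells. The values of the earlier period in the Pvalb and in the excitatory comparison therefore rest in part on few cells. In the later period the same holds for the 5 ET cells. The ratio of the highest to the lowest t-type was 3.53 by medians and 3.33 in the later period for the nuclear members, and 17.3 and 17 for the mitochondrial members. Of the named members past 1.5-fold, those that changed sign were, between ET and IT cells, Ndufb3 (0.62 with the median over cells), Ndufb3 (0.074 with the later period), Ndufs3 (0.72 with the later period), Ndufaf8 (-2.93 with the later period) and Ndufb7 (-0.13 with the mean over recording dates), and between excitatory and inhibitory families Ndufaf8 (-0.39 with the later period). Of the named list genes, Ucp2 (from -1.58 to 0.18) and Tfam (from -1.49 to 3.18) between ET and IT cells and Sco1 (from -1.58 to 1.23) between excitatory and inhibitory families also changed sign under an alternative. The causes were not tested. Cox6a2 kept its direction in both comparisons under every alternative run, from 1.98 to 4.96 in Pvalb cells and from -4.44 to -3.09 in excitatory cells. Depth limits the genes under 10 CPM, and no value here carries an error between animals.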
